A study of Mus musculus with 30 samples.

Results

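The genes described here are 10 genes of prostaglandin synthesis, reception and breakdown, listed by symbol among 23109 genes measured by RNA sequencing in mouse brown preadipocytes. They are the cyclooxygenases Ptgs1 and Ptgs2, the prostaglandin E synthases Ptges and Ptges2, the prostacyclin synthase Ptgis, the receptors Ptger2, Ptger4, Ptgfr and Tbxa2r, and the prostaglandin dehydrogenase Hpgd. The list is one of names and applies no threshold to measured values. Where a gene had several RefSeq transcripts, the one with the highest read total was used, which concerned Ptger4 alone among the 10.

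The cells derive from newborn C57BL/6J mice, from the brown fat between the shoulder blades, homozygous for a loxP-flanked glucocorticoid receptor gene (GR-flox/flox), and SV40T, a viral T antigen, had immortalised them. All groups share that background. A control retrovirus gave the line called Vec, with the receptor gene intact, and a retrovirus carrying Cre recombinase gave the line called Cre, in which the receptor gene is deleted. The labels of the RNA samples name no clone and no second line, and whether each genotype comes from a single infected line is not stated. Some ChIP titles mark a further Vec sample without saying whether it is a second line. Cells were plated 4 days before induction, and at confluence they received indomethacin (0.125 mM), dexamethasone (2 µg/ml), IBMX (0.5 mM), T3 (1 nM) and insulin (0.02 µM), a mix the labels give for 4 hours. Indomethacin blocks the enzymes made from Ptgs1 and Ptgs2, dexamethasone activates the glucocorticoid receptor, and IBMX, a phosphodiesterase inhibitor, lifts cAMP. RNA was taken before induction (D0), at 4 hours (4h) and on days 2 and 7 (D2, D7), with 1 library for each genotype and time, 8 in all. Which medium followed the first 4 hours is not stated in the labels.

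Prostaglandins are short-lived lipid signals. Phospholipases free arachidonic acid from membranes, the cyclooxygenases turn it into prostaglandin H2, and terminal synthases make prostaglandin E2, prostacyclin, prostaglandin F2α, prostaglandin D2 or thromboxane from it. These act on cells through G-protein-coupled receptors and are inactivated by Hpgd after uptake. In fat, prostacyclin and some prostaglandin D2 products are known to favour adipocyte formation, prostaglandin F2α is known to restrain it, and the inducible enzyme Ptgs2 is a textbook target of glucocorticoid repression and of cAMP and inflammatory signals.

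The levels below are RPKM values, reads per kilobase of transcript and per M (mega) reads of the library, with 95% exact Poisson intervals on the reads where given. Libraries held 7.7 to 28.9 M reads, and Cre 4h was the shallowest. Nr3c1, the deleted receptor gene, had between 2.64 and 5.04 times the level in Vec that it had in Cre, so each library matched its label in direction while some Nr3c1 reads were left in Cre. The summed RPKM of 7 adipocyte markers rose from 48.3 at D0 to 4729 at D7 in Vec and from 50.7 to 1713 in Cre. That of 6 blood cell markers never passed 1.56. Of 6 brown fat markers, Ucp1 and Cidea had no reads at D0 in either genotype. The others had reads there, Cox7a1 at 1.63 RPKM in Vec and 0.680 in Cre, Prdm16 at 0.514 and 0.564, Ppargc1a at 0.321 and 0.268, and Dio2 at 0.0366 and 0.0285. With 1 library per group there is no spread between cultures. Time was tested in an additive edgeR model of time and genotype, in which each time holds a Vec and a Cre library, so the p-values below test the change shared by both genotypes, with the departure of the genotypes from a common response as the error. Differences between Cre and Vec at a single time have a size and a counting interval but no test.

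Promoter sequences of the 2 cyclooxygenases and of Tbxa2r are shown because these genes show the 4-hour courses described below, a peak of Ptgs2, little change of Ptgs1 and a near loss of Tbxa2r. Each run gives the 250 bases before the RefSeq start (build GRCm38.p6), 5′ to 3′ on the strand of the gene, in lower case, with capitals only where a searched motif was found. The windows are chr2:36230176-36230425 for Ptgs1, chr1:150099781-150100030 for Ptgs2 and chr10:81328453-81328702 for the second of 2 starts of Tbxa2r, all on the plus strand.
Ptgs1: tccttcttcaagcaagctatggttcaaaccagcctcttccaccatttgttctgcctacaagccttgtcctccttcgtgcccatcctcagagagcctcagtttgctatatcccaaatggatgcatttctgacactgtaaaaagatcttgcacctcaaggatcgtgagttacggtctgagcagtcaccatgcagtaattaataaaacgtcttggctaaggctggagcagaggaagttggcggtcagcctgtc
Ptgs2: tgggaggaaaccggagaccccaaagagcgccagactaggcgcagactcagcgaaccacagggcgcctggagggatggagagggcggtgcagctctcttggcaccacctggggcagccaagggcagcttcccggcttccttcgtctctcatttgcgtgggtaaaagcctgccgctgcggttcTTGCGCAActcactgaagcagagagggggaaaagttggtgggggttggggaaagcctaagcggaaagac
Tbxa2r: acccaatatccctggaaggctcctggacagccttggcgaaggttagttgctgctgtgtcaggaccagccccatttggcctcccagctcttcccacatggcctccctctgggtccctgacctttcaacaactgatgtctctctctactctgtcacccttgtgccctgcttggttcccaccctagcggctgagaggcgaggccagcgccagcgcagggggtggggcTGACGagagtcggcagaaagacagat

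A further 30 bases of Ptgs2, from base 4 to base 33 counted from its start as base 1 (chr1:150100034-150100063), hold the other matches.
Ptgs2 after the start: gtcaccactaCGTCACGTGgagtccgcttt

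The capitals in the Ptgs2 promoter are TTGCGCAA, a palindromic site of the C/EBP factors, 69 to 62 bases before the start. Those after the RefSeq start are CGTCA at bases 14 to 18 and an E-box CACGTG at bases 17 to 22, which share 2 bases. CGTCA is the core TGACG of a cAMP response element read on the other strand. All positions count from the annotated RefSeq start, and where transcription begins in these cells was not examined. The capitals in Tbxa2r are TGACG, 26 to 22 bases before the second of its 2 starts. The window of its first start, not printed, holds none of the 6 motifs. The search covered both strands from 250 bases before each start to 50 after it, in the 10 windows that RefSeq gave for 9 of the 10 genes. Of 32851 windows of this length, 20.8% hold TGACG, 7.15% CACGTG and 0.183% TTGCGCAA. No window of these 10 genes holds the full cAMP response element TGACGTCA (1.79% of all windows) or the glucocorticoid response element (0.475%), and Ptgs1 holds none of the 6 motifs. Ptges2 also holds CACGTG, and Hpgd the TATA box letters TATAAA, found in 13.6% of windows. The motifs were chosen with results for these genes known, a match is a description of letters and not of a bound site, and the absence of one says nothing about the factor.

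Of the 10 genes, 8 reached an RPKM of 1 in at least 2 libraries and entered the model with 12581 genes. Ptgs1 and Ptgis were the highest at D0 and 4h, at 27.7 to 55.4 RPKM, and the other measured members lay below 10 RPKM there with the exception of Ptgs2 in Cre 4h. By D7 the order had changed in Vec, where Ptges2 (16.7, interval 15.3 to 18.2) and Ptgs1 (15.9, interval 14.8 to 17.2) led with overlapping intervals, while in Cre D7 Ptgs1 (32.9) and Ptgis (22.0) still led.

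**Figure D1:**
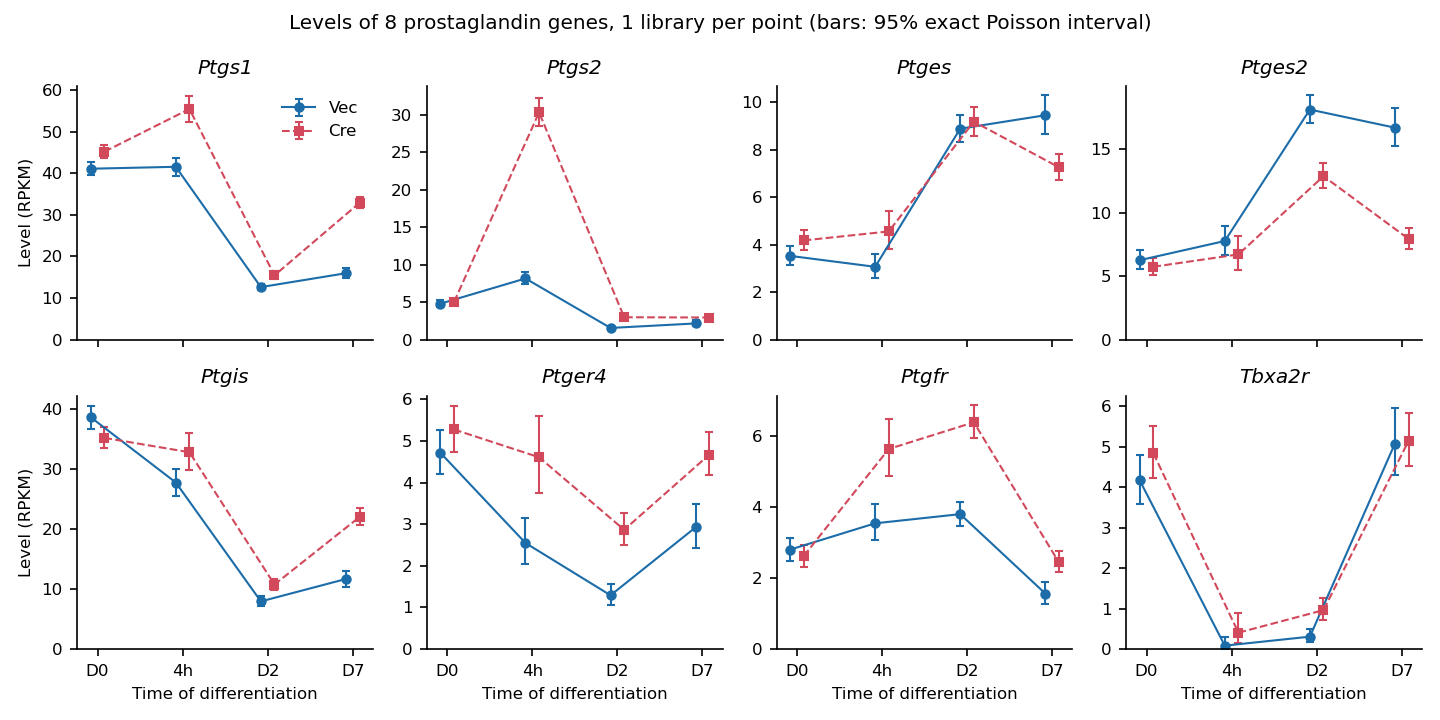
Levels in RPKM (y axis, linear, from 0) of the 8 measured genes at D0, 4h, D2 and D7 (x axis) in Vec (circles, solid lines) and Cre (squares, dashed lines), 1 library per point, with bars for 95% exact Poisson intervals. Ptgs2 stands out at 4h in Cre (30.3 against 8.15 in Vec), Tbxa2r nearly vanishes at 4h and D2, and Ptgs1 and Ptgis share a dip at D2.

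Ptgs2, the inducible cyclooxygenase, rose at 4 hours of induction and then fell below its starting level. Its RPKM was 4.78 in Vec D0, 8.15 in Vec 4h, 1.55 in Vec D2 and 2.15 in Vec D7. The Cre libraries held 5.0 (D0), 30.3 (4h), 2.97 (D2) and 2.94 (D7). The Cre 4h library therefore stood far above every other, and the D2 and D7 libraries of both genotypes lay below both D0 libraries. Over both genotypes the log2 change from D0 to 4h was 1.82 (SE 0.41, adjusted p 0.027), and that from 4h to D2 was −3.07 (SE 0.42, adjusted p 0.0060). The change from D0 to D2, −1.25 (adjusted p 0.0545), and that from D0 to D7, −0.90 (adjusted p 0.197), did not pass the threshold of 0.05. For the rise from D0 to 4h, leaving out Vec D0, Cre D0, Vec 4h or Cre 4h gave log2 changes of 2.34, 1.31, 2.42 and 1.12. The call on this rise was lost in each of these 4 fits, in which fewer of all genes passed than with every library kept. It was also lost in limma on log2(RPKM + 5), at an adjusted p of 0.0536.

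The genotypes differed in the size of this response. From D0 to 4h the ratio of RPKM values was 1.70 in Vec (95% Clopper-Pearson interval 1.49 to 1.95) and 6.07 in Cre (5.44 to 6.77). At 4h Cre held 3.72 times the level of Vec (3.31 to 4.18), against 1.04 (0.918 to 1.19) at D0, 1.92 (1.60 to 2.32) at D2 and 1.37 (1.11 to 1.69) at D7. The intervals cover counting error only. The Vec and Cre libraries at 4h thus differed far beyond counting error, whereas those at D0 did not. On the log2(RPKM + 1) scale the difference at 4h was 1.78, and Ptgs2 was the 1 member of the 7 measured in that pair that differed at least 2-fold, where 1.65% of 11897 genes did so in the direction of Cre. The median difference of all genes at 4h was 0.112 on this scale, and TMM or RLE factors shift Vec 4h by 0.116 or 0.119 and every other library by less than 0.1. The difference between genotypes in the response of Ptgs2 was not tested.

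Ptgs1, the constitutive cyclooxygenase, stayed near its starting level at 4 hours, fell by D2 and came back in part by D7. It had 41.1 RPKM in Vec D0, 41.5 in Vec 4h, 12.6 in Vec D2 and 15.9 in Vec D7. The Cre libraries held 45.1 (D0), 55.4 (4h), 15.4 (D2) and 32.9 (D7). Both D2 libraries lay far below all D0 and 4h libraries, and the D7 libraries lay between, with Cre well above Vec. The log2 change from D0 to D2 was −1.66 (SE 0.22, adjusted p 0.0049) and that from 4h to D2 −1.91 (adjusted p 0.0044), and both passed the threshold in all 15 alternatives. From D2 to D7 it rose by 0.87 (SE 0.22, adjusted p 0.0379), with adjusted p-values of 0.0587, 0.0583, 0.0593, 0.0596, 0.165, 0.168 and 0.0984 without Vec D0, Cre D0, Vec 4h, Cre 4h, Vec D2, Cre D2 and Cre D7, and of 0.0611 and 0.0707 in limma on log2(RPKM + 1) and log2(RPKM + 5). At D7 the Cre library held 2.06 times the level of Vec (1.89 to 2.25), a difference of 0.999 on the log2(RPKM + 1) scale and so just under the size of 1 that counts as 2-fold. In Vec, Ptgs1 had recovered by 1.26-fold from D2 to D7 (1.15 to 1.39), and in Cre by 2.13-fold (1.98 to 2.29).

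Ptgs1 was the more abundant cyclooxygenase in all 8 libraries. The 2 came closest in Cre 4h, with Ptgs2 at 30.3 RPKM and Ptgs1 at 55.4, against 5.0 and 45.1 in Cre D0.

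Ptgis, which makes prostacyclin, shared with Ptgs1 the dip at D2 and the partial return by D7. From D0 to 4h Ptgis fell in Vec, where Ptgs1 held at 41.1 and 41.5 RPKM. In Cre Ptgis did not rise by 4h, while Ptgs1 went from 45.1 to 55.4. The RPKM of Ptgis went from 38.6 (D0) to 27.7 (4h), 7.93 (D2) and 11.7 (D7) in Vec. The Cre libraries held 35.1 (D0), 32.8 (4h), 10.7 (D2) and 22.0 (D7). Again both D2 libraries were the lowest, and Cre D7 stood above Vec D7, by 1.88-fold (1.66 to 2.15). The log2 change from D0 to D2 was −2.04 (SE 0.25, adjusted p 0.0042) and that from 4h to D2 −1.83 (adjusted p 0.0060), past the threshold in all 15 alternatives. The rise from D2 to D7 was 0.95 (SE 0.25, adjusted p 0.0402) and was lost without Vec 4h, Cre 4h, Vec D2, Cre D2 or Cre D7 (adjusted p 0.0606, 0.0605, 0.224, 0.119 and 0.166), and in limma on log2(RPKM + 1) and log2(RPKM + 5) (0.0580 and 0.0723). The change from D0 to D7, −1.09, did not pass (adjusted p 0.0527). Over the 8 libraries Ptgis and Ptgs1 correlated with r = 0.97 on the log2(RPKM + 1) scale, a description over libraries that share times and lines.

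Ptges and Ptges2, which make prostaglandin E2, went the other way and were higher on days 2 and 7 than before induction. Ptges, the microsomal and inducible enzyme, had 3.52, 3.06, 8.88 and 9.45 RPKM in Vec and 4.18, 4.55, 9.18 and 7.26 in Cre at D0, 4h, D2 and D7. The D2 and D7 libraries of both genotypes did not overlap those at D0 and 4h. Its log2 change from D0 was 1.21 at D2 (SE 0.22, adjusted p 0.0104) and 1.22 at D7 (SE 0.22, adjusted p 0.0334). Ptges was the only member past the threshold at D7, where 8.09% of genes passed and 5.68% were higher. The D2 call was lost without Vec D0 or Vec D2 (adjusted p 0.0970 and 0.0554), and the D7 call without Vec D0, Cre D0, Vec D2, Cre D2 or Vec D7 (adjusted p 0.297, 0.104, 0.0568, 0.0570 and 0.109). From 4h to D2 its log2 change was 1.14 (adjusted p 0.0149), lost without Vec 4h, Vec D2 or Cre D2 (adjusted p 0.0966, 0.0725 and 0.0616).

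Ptges2, the membrane-associated enzyme, had 6.26 RPKM in Vec D0, 7.77 in Vec 4h, 18.1 in Vec D2 and 16.7 in Vec D7. The Cre libraries held 5.74 (D0), 6.71 (4h), 12.9 (D2) and 7.94 (D7). All D2 libraries exceeded all D0 and 4h libraries, and at D7 the genotypes parted, with Vec near its D2 level and Cre near the level of Vec 4h. The log2 change from D0 to D2 was 1.32 (SE 0.25, adjusted p 0.0115), lost without Vec D0, Vec D2 or Cre D2 (adjusted p 0.101, 0.0562 and 0.0506), and that from D0 to D7 was 1.06 (adjusted p 0.0565). From 4h to D2 it was 0.96 (adjusted p 0.0330), lost without Vec 4h, Cre 4h, Vec D2 or Cre D2 (adjusted p 0.186, 0.0832, 0.122 and 0.121). Vec D7 held 2.10 times the level of Cre D7 (1.84 to 2.41), a log2(RPKM + 1) difference of −0.99 for Cre against Vec, just short of the 2-fold size. Ptges2 ran counter to Ptgis (r = −0.97) and Ptgs1 (r = −0.96) over the 8 libraries, and with Ptges (r = 0.84).

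Levels of cell state markers are given beside these courses. The summed RPKM of 7 preadipocyte and fibroblast markers was 1940 and 2031 at D0, 2159 and 2168 at 4h, 414 and 894 at D2, and 1198 and 2071 at D7 in Vec and Cre, low where Ptgs1 and Ptgis were low. Col1a1 made up most of each sum. From D0 to D2, 5 of the 7 were lower in both genotypes, while Dlk1 was higher (53.2 to 69.3 RPKM in Vec, 58.9 to 91.2 in Cre) and so was Ebf2 (8.23 to 19.2 and 8.62 to 12.8). All 7 markers reached an RPKM of 1 in all 8 libraries. The sum of 7 adipocyte markers was 48.3 and 50.7 at D0, 94.2 and 80.2 at 4h, 2365 and 2116 at D2, and 4729 and 1713 at D7. Adipoq, Plin1 and Cidec had no reads at 4h. Brown fat markers summed to 57.0 in Vec D7 and 10.2 in Cre D7, of which Cox7a1 made up 41.2 and 4.98. Ucp1 was at 0.882 RPKM in Vec D7 and 0.0738 in Cre D7, and Cidea at 7.36 and 1.29. In bulk RNA a change in the number of cells of a type and a change in RNA per cell cannot be told apart, and the part of the cell state in the results on Ptgs1, Ptgis, Ptges and Ptges2 was not tested. Markers of mast cells (at most 0.385 in sum) and epithelium (at most 0.181) were near 0. Those of endothelium summed to at most 3.18, in Cre D7, where Kdr was at 1.62 RPKM and Tek at 1.47. Muscle markers summed to between 3.85 and 26.0.

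**Figure D2:**
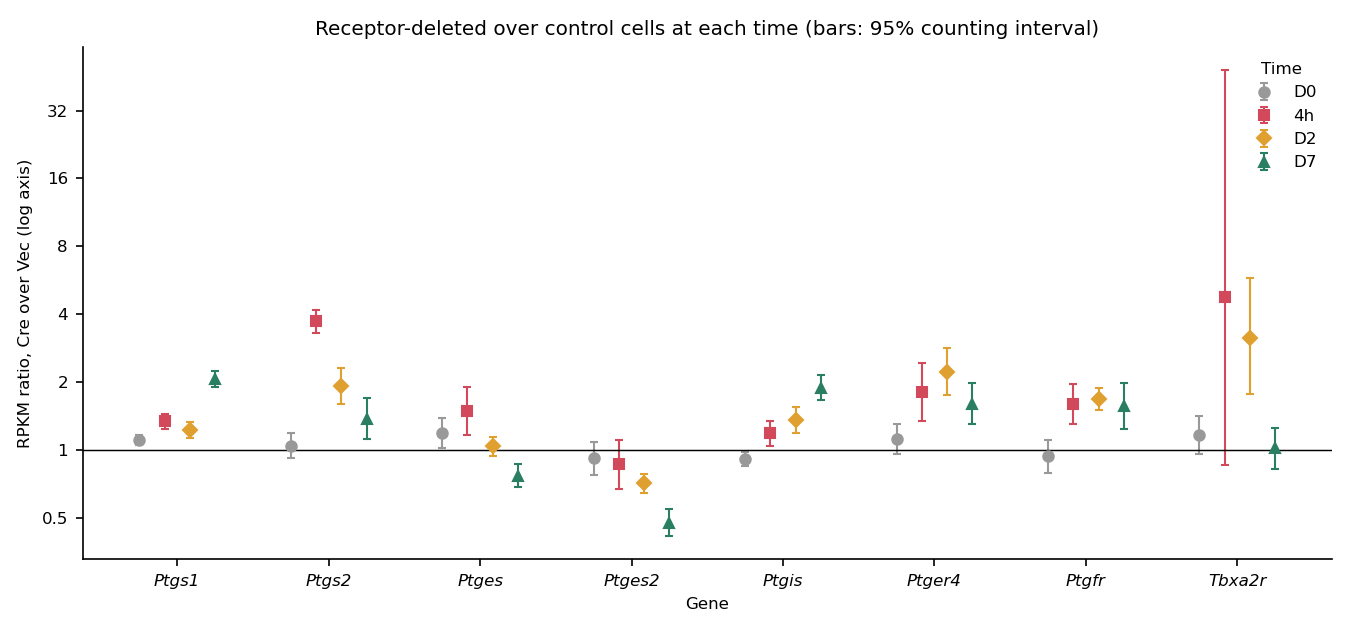
Ratio of RPKM in Cre over Vec (y axis, log scale) for the 8 measured genes (x axis) at D0 (circles), 4h (squares), D2 (diamonds) and D7 (triangles), with bars for 95% Clopper-Pearson intervals that cover counting error only and a line at equal levels. Ptgs2 is highest at 4h (3.72), Ptgs1 and Ptgis at D7 (2.06 and 1.88), Ptges2 falls to 0.475 at D7, and Tbxa2r at 4h rests on 2 and 6 reads.

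Among the receptors, Tbxa2r, the thromboxane receptor, was far lower at 4h and D2 than before and after. It had 4.17 RPKM (188 reads) in Vec D0 and 4.84 (224 reads) in Cre D0. At 4h it had 0.085 (2 reads) in Vec and 0.406 (6 reads) in Cre. At D2 it had 0.307 (17 reads) in Vec and 0.963 (49 reads) in Cre, and by D7 it was back at 5.08 (148 reads) and 5.15 (244 reads). The D0 and D7 libraries thus lay together, and the 4h and D2 libraries lay below 1 RPKM in both genotypes. The ratio of D0 to 4h was 49.0 in Vec, with a counting interval of 13.4 to 408, and 11.9 in Cre (5.40 to 32.9).

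In the model the log2 change of Tbxa2r was −4.28 from D0 to 4h (SE 0.62, adjusted p 0.0109), −2.94 from D0 to D2 (SE 0.46, adjusted p 0.0073) and 3.23 from D2 to D7 (SE 0.47, adjusted p 0.0098). The change from D0 to D7 was 0.30 (adjusted p 0.661). The call at 4h was lost without Vec D0 or Vec 4h (log2 change −4.00 and −3.66). That at D2 was lost without Vec D0 (−2.68) and that from D2 to D7 without Vec D2 (2.61). Fewer of all genes passed in these fits as well. On log2(RPKM + 5), where low levels weigh less, the 4-hour change was −0.86. At D2 Cre held 3.14 times the level of Vec (1.78 to 5.81), but with both libraries under 1 RPKM this pair was left out of the count of 2-fold differences, and at 4h the interval (0.853 to 48.4) spans equality.

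Ptger4, the EP4 receptor for prostaglandin E2, fell to its lowest level at D2. Its RPKM went from 4.71 (D0) to 2.55 (4h), 1.29 (D2) and 2.92 (D7) in Vec. The Cre libraries held 5.27 (D0), 4.61 (4h), 2.86 (D2) and 4.67 (D7). From 4h on, Cre lay above Vec at each time, by 1.81-fold (1.34 to 2.44), 2.22-fold (1.75 to 2.83) and 1.60-fold (1.30 to 1.98), none of which reached the 2-fold size on the log2(RPKM + 1) scale. The log2 change was −1.39 from D0 to D2 (SE 0.26, adjusted p 0.0117), −0.93 from 4h to D2 (adjusted p 0.0446) and 1.04 from D2 to D7 (SE 0.26, adjusted p 0.0379). The D0 to D2 call was lost without Vec D0 or Vec D2 (adjusted p 0.0794 and 0.0687). The 4h to D2 call was lost without Vec 4h, Cre 4h, Vec D2, Vec D7 or Cre D7 (adjusted p 0.147, 0.154, 0.199, 0.0656 and 0.0666) and in limma on log2(RPKM + 1) and log2(RPKM + 5) (0.0510 and 0.0568), and the D2 to D7 call without Vec 4h, Cre 4h, Vec D2, Vec D7 or Cre D7 (adjusted p 0.0588, 0.0598, 0.203, 0.123 and 0.124).

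Ptgfr, the FP receptor for prostaglandin F2α, was highest at D2, the time at which Ptger4 was lowest. Over the 8 libraries Ptgfr and Ptger4 correlated only weakly, with r = −0.17. Ptgfr had 2.81, 3.55, 3.81 and 1.57 RPKM in Vec and 2.62, 5.64, 6.40 and 2.45 in Cre at D0, 4h, D2 and D7. Both D7 libraries lay below both D0 libraries, and both D2 libraries above them. Cre and Vec were alike within counting error at D0, with a ratio of 0.935 (0.790 to 1.11). At 4h Cre was above Vec by 1.59-fold (1.30 to 1.95). The later ratios were much the same, 1.68 (1.5 to 1.89) on day 2 and 1.56 (1.24 to 1.98) on day 7.

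The fitted log2 change of Ptgfr was 0.82 from D0 to D2 (SE 0.23, adjusted p 0.0358) and −1.21 from D2 to D7 (SE 0.23, adjusted p 0.0191), while 0.80 from D0 to 4h did not pass (adjusted p 0.0558). The first of these was lost without Cre D0, Vec 4h, Cre 4h, Vec D2 or Cre D2 (adjusted p 0.148, 0.0551, 0.0561, 0.0676 and 0.162). The fall from D2 to D7 was lost without Vec D2, Cre D2, Vec D7 or Cre D7 (adjusted p 0.0596, 0.0814, 0.0892 and 0.0695).

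Ptger2, the EP2 receptor, and Hpgd, which oxidises and so inactivates prostaglandins, were barely detected. Ptger2 had 17 reads over the 8 libraries, with at most 7 in Cre D2 (0.070 RPKM) and 0 in Vec D7. Hpgd had 3 reads in all, 1 each in Vec D2, Vec D7 and Cre D7. A floor of 3 reads corresponds to 0.028 to 0.103 RPKM for Ptger2 and to 0.060 to 0.226 RPKM for Hpgd, so levels at or below that size were not detectable and no change was read from them.

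**Figure D3:**
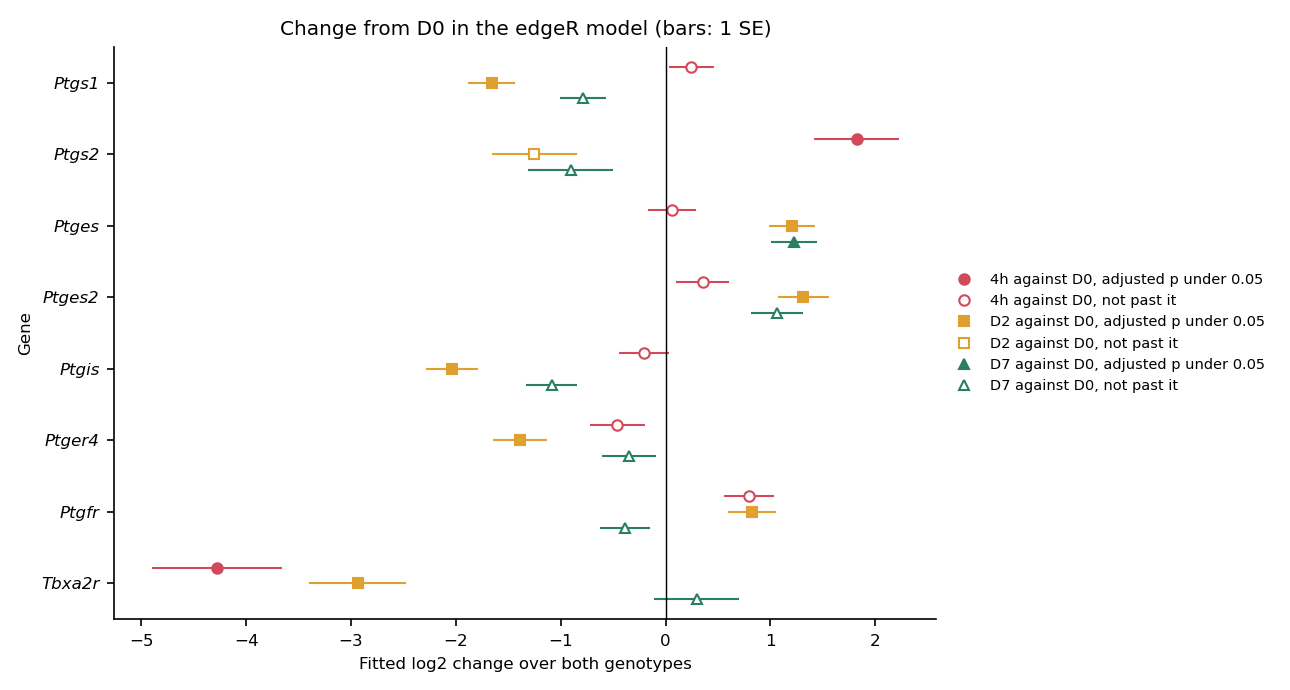
Fitted log2 change from D0 over both genotypes (x axis) of the 8 measured genes (y axis) at 4h (circles), D2 (squares) and D7 (triangles), with bars for 1 SE; filled symbols have an edgeR adjusted p under 0.05. At D2, 7 of the 8 symbols are filled, against 2 at 4h and 1 at D7, where 38.7%, 25.3% and 8.09% of all genes tested passed.

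Counted over the 8 genes tested, 2 passed the edgeR threshold at 4h against D0, Ptgs2 higher and Tbxa2r lower, where 25.3% of all genes passed (12.2% higher, 13.1% lower). At D2 against D0, 7 passed, Ptges, Ptges2 and Ptgfr higher and Ptgs1, Ptgis, Ptger4 and Tbxa2r lower, where 38.7% of genes passed (17.7% higher, 21.0% lower). From 4h to D2, 6 passed, Ptges and Ptges2 higher and Ptgs1, Ptgs2, Ptgis and Ptger4 lower, where 33.4% of genes passed (15.4% higher, 18.0% lower). From D2 to D7, 5 passed, Ptgs1, Ptgis, Ptger4 and Tbxa2r higher and Ptgfr lower, where 24.3% of genes passed (15.4% higher, 8.93% lower). The median log2 change of the 8 was 0.15 at 4h, −1.32 at D2 and −0.37 at D7, beside −0.00, 0.02 and 0.01 over all genes tested. Members that passed the filter on low values do not stand for all 10.

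In the fitted difference over all times, 7 of the 8 members had a positive value for Cre against Vec and Ptges2 a negative one, but none passed the edgeR threshold. The log2 difference was 0.81 for Ptgs2 (SE 0.29), 0.66 for Ptger4 (SE 0.19), 0.56 for Tbxa2r (SE 0.34), 0.46 for Ptgfr (SE 0.17), 0.43 for Ptgs1 (SE 0.15), 0.32 for Ptgis (SE 0.17), 0.07 for Ptges (SE 0.15) and −0.52 for Ptges2 (SE 0.18), with adjusted p-values from 0.410 to 0.844. None of the 12581 genes tested passed (0.0%), although 1501 of them and 5 of these 8 had an unadjusted edgeR p under 0.05. The 8 members share the same libraries and were chosen with earlier results known, so no enrichment is read from these counts. Even Nr3c1, the deleted gene, was not called by edgeR, so a missing call in this comparison does not show that the genotypes were alike. DESeq2 called 19 genes, none of them a member, and limma none. The median was 0.45 over the 8 and −0.01 over all genes. By size, 0 of 8 members differed at least 2-fold at D0, where 0.433% of genes did (0.158% higher and 0.275% lower in Cre). At 4h 1 of 7 did, where 4.24% of genes did (1.65% higher, 2.59% lower). At D2 0 of 7 did, beside 4.09% of genes (2.55% higher, 1.54% lower), and at D7 0 of 8, beside 4.5% (1.39% higher, 3.12% lower). The median member difference was 0.09, 0.45, 0.39 and 0.37 at these times, beside 0.01, 0.11, −0.04 and 0.03 for all genes, whose SD was 0.17, 0.45, 0.45 and 0.46.

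Other genes of the pathway were listed by role, 48 in all, of which 26 entered the model. At 4h, 1 of the 26 rose and 2 fell, all of them receptors, beside 25.3% of all genes that passed (12.2% higher, 13.1% lower). Ptger3, the EP3 receptor, rose by 2.19 (SE 0.47, adjusted p 0.0244) from 0.127 and 0.185 RPKM at D0 to 0.647 and 0.707 in Vec and Cre. That call was lost without Vec D0, Cre D0, Vec 4h or Cre 4h (adjusted p 0.152, 0.0819, 0.128 and 0.0769) and in limma on log2(RPKM + 1) and log2(RPKM + 5) (0.0796 and 0.170). Ptgir, the prostacyclin receptor, changed by −2.60 (adjusted p 0.0137), from 2.30 and 2.23 to 0.245 and 0.506 RPKM, lost without Vec D0, Vec 4h or Cre 4h (adjusted p 0.0844, 0.0964 and 0.0511). The other that fell was Ptger1, the EP1 receptor, whose reads are uncertain because the treatment of strand is not stated, and no value is given for it. Like Tbxa2r, Ptgir rose again from D2 to D7, by 1.44 (adjusted p 0.0338), lost without Vec 4h, Cre 4h, Vec D2, Vec D7 or Cre D7 (adjusted p 0.0524 to 0.176).

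At D2 against D0, 8 of the 26 rose and 7 fell, where 17.7% of all genes were higher and 21.0% lower. The 7 that fell include Ptger1, whose reads are uncertain. At D7 against D0, 6 rose and 2 fell, where 5.68% of all genes were higher and 2.42% lower. Without Vec D0 no gene at all passed at D7. Ptger3 rose from D0 by 3.45 at D2 (SE 0.40, edgeR adjusted p 0.0036) and by 3.23 at D7 (SE 0.41, adjusted p 0.0158). With 1 library left out its log2 change ran from 3.14 to 3.76 at D2 and from 2.77 to 3.69 at D7. Its D7 call was lost without Vec D0 or Cre D0. Of the 7 genes of arachidonate release that were tested, 5 rose by D2 and 1 fell. Mgll, a monoacylglycerol lipase of fat, rose by 5.61 at D2 (adjusted p 0.0031) and 6.08 at D7 (adjusted p 0.0076), Plaat3, a phospholipase abundant in adipocytes, by 3.36 and 3.47 (adjusted p 0.0047 and 0.0158), and Pla2g12a by 2.39 at D2 (adjusted p 0.0040). Leaving out single libraries took away the D7 call of Mgll (without Vec D0, adjusted p 0.106), the D2 call of Plaat3 (without Vec D0, 0.0506) and its D7 call (without Vec D0 or Cre D0, 0.195 and 0.0804). Pla2g6 and Pla2g15, further phospholipases, rose by 0.71 and 0.68 at D2 (adjusted p 0.0308 and 0.0397), and Pla2g15 by 1.25 at D7 (adjusted p 0.0260). The D2 call of Pla2g6 was lost without Vec D0, Vec D2 or Cre D2 (adjusted p 0.0929 to 0.206). That of Pla2g15 was lost without Vec D0, Cre D0, Vec 4h, Cre 4h or Cre D2 (0.0612 to 0.207), and its D7 call without Vec D0, Cre D0 or Vec D7 (0.0819 to 0.253). Pla2g4b, which overlaps another gene so that its reads are uncertain without strand, passed only from 4h to D2 (1.27, adjusted p 0.0235), lost without Vec 4h, Vec D2 or Cre D2 (0.0737 to 0.154). Pla2g4a, the cytosolic phospholipase that feeds the cyclooxygenases, changed by −1.24 at D2 (adjusted p 0.0155), from 14.3 and 14.0 RPKM to 5.98 and 6.33, lost without Vec D0, Vec D2 or Cre D2 (adjusted p 0.0681 to 0.129). Adipocyte markers rose along with Mgll and Plaat3, in the values given above, a link that was not tested. Among synthases of other prostanoids, Ptgds, Hpgds and Tbxas1, which make prostaglandin D2 and thromboxane, never exceeded 0.217 RPKM, whereas the reductases Cbr1 (12.7 to 40.8 RPKM) and Akr1b8 (11.1 to 24.5 RPKM) were well expressed. Of the 5 other synthases tested, Akr1b8 alone passed at D2 (−1.13, adjusted p 0.0070), lost without Vec D0 (adjusted p 0.0688).

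Of the genes of inactivation and transport, Ptgr1, a prostaglandin reductase, changed by −1.40 at D2 (adjusted p 0.0041), from 14.0 and 13.4 RPKM at D0 to 4.92 and 5.70 in Vec and Cre, and this call passed with any library left out. Its change at D7 was −1.02 (adjusted p 0.0290), lost without any library but Cre D7 (adjusted p 0.0512 to 0.258). Ptgr2 rose by 1.17 and 1.41 at D2 and D7 (adjusted p 0.0254 and 0.0457). Its D2 call was lost without Vec D0, Vec D2 or Cre D2 (adjusted p 0.0812 to 0.180), and its D7 call without any library but Cre D7 (0.0716 to 0.333), in limma on log2(RPKM + 5) (0.0618) and with an RPKM of at least 5 in 2 libraries (0.0537). Abcc4, an exporter, rose by 1.39 at D2 (adjusted p 0.0337), lost without Vec D0 or Vec D2 (adjusted p 0.241 and 0.160).

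In the lipoxygenase branch, which makes leukotrienes from the same arachidonic acid, Alox5ap, the partner protein of 5-lipoxygenase, changed by −3.17 at D2 (adjusted p 0.0138), from 2.19 and 1.94 RPKM to 0.081 and 0.397. This was lost without Vec D0 or Vec D2 (adjusted p 0.0980 and 0.0743). Lta4h, the leukotriene A4 hydrolase, changed by −0.45 at D2 and −0.53 at D7 (adjusted p 0.0219 and 0.0431). The first was lost without Vec D0, Cre D0, Vec D2 or Cre D2 (adjusted p 0.0609 to 0.171), and the second without any 1 of the 8 libraries (0.0662 to 0.317) and with an RPKM of at least 5 in 2 libraries (0.0518). Ltc4s, the leukotriene C4 synthase, rose by 3.71 at D7 (adjusted p 0.0292), lost without Vec D0, Cre D0, Vec 4h, Cre 4h or Vec D7 (adjusted p 0.0529 to 0.287).

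**Figure D4:**
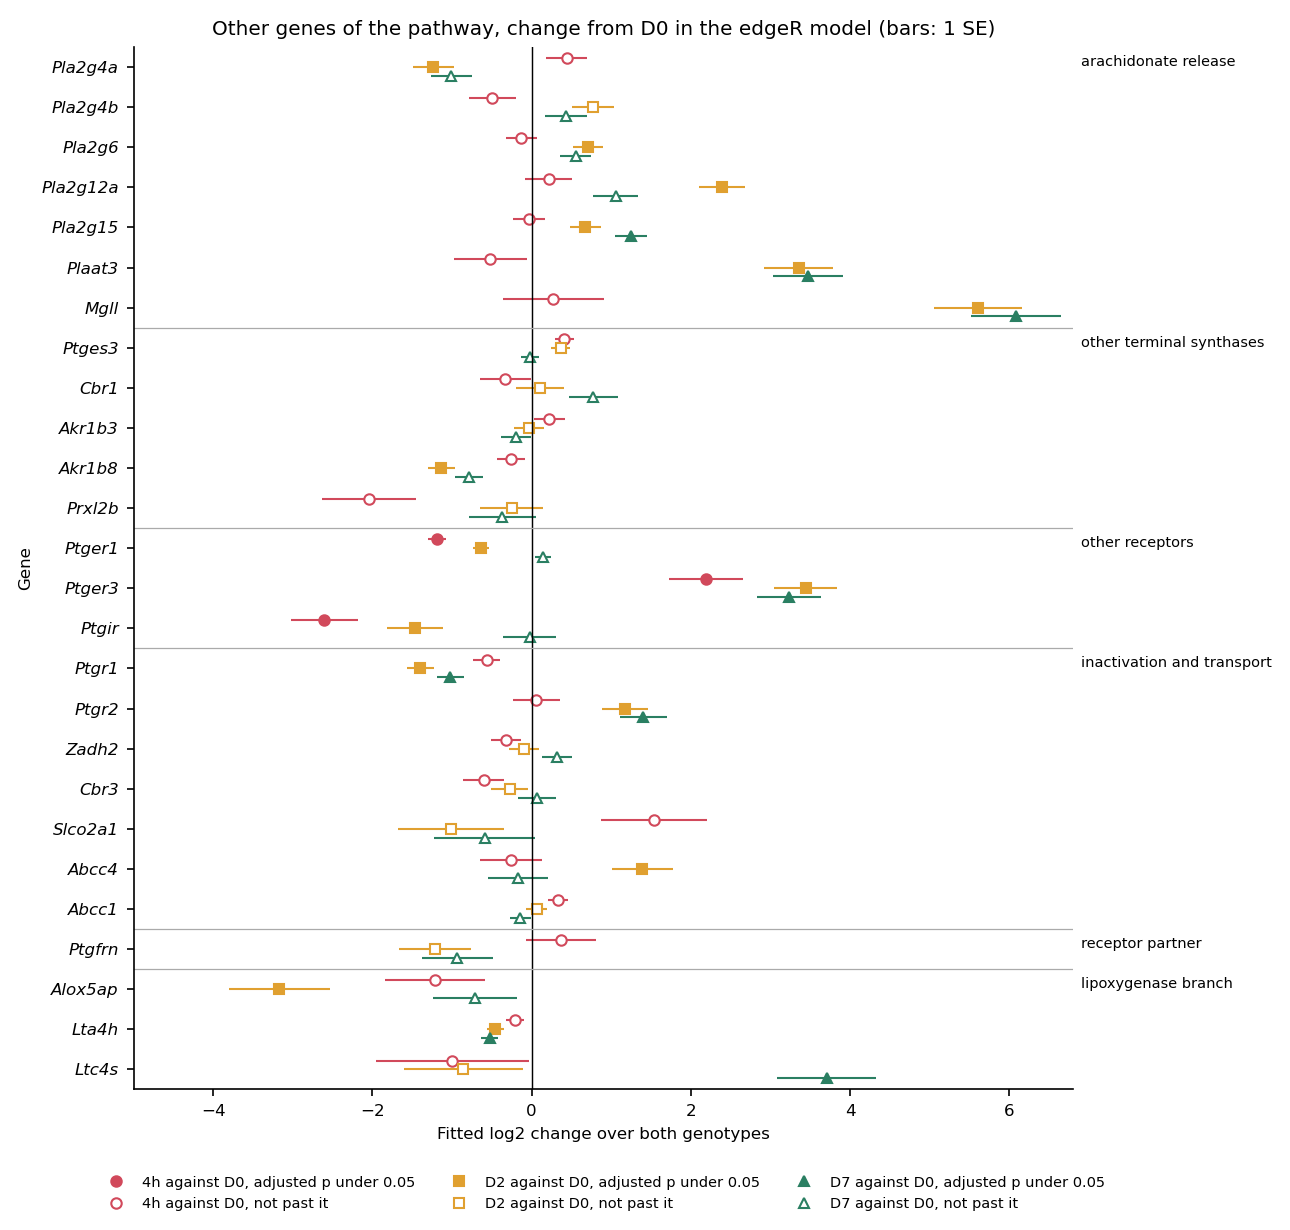
Fitted log2 change from D0 over both genotypes (x axis) of the 26 tested genes of the wider pathway (y axis, grouped by role) at 4h (circles), D2 (squares) and D7 (triangles), with bars for 1 SE; filled symbols have an edgeR adjusted p under 0.05. The filled symbols at 4h are the receptors Ptger1, Ptger3 and Ptgir. Ptger1 and Pla2g4b are drawn although their reads are uncertain, as the treatment of strand is not stated. The farthest to the right at D2 and D7 include Mgll and Plaat3, with Ptger3 at D2 and Ltc4s at D7.

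Between genotypes, none of the 24 listed genes measured at D0 differed 2-fold. At 4h, 2 of 19 did, beside 4.24% of all genes: Pla2g4a was higher in Cre, at 26.1 against 11.9 RPKM (2.19-fold, 1.92 to 2.49), beside the higher Ptgs2 in that library, and Slco2a1, the prostaglandin transporter, was lower, at 20.4 against 68.4 RPKM (3.35-fold, 3.08 to 3.65). At D2, 1 of 25 was higher in Cre and 3 were lower, beside 2.55% and 1.54% of all genes. Slco2a1 was again lower, at 3.52 against 13.6 RPKM, and Abcc4 and Pla2g12a were lower there as well. Ptgfrn, a membrane partner named for the FP receptor, was higher in Cre at D2, at 40.5 against 13.3 RPKM, and at D7, at 40.9 against 17.8 RPKM. At D7, 6 of 27 were lower in Cre, namely Cbr1, Ltc4s, Mgll, Pla2g12a, Plaat3 and Ptgr2, beside 3.12% of all genes, in the pair of libraries where the adipocyte marker sum was 1713 in Cre and 4729 in Vec.

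Among 11540 tested genes, without symbols of uncharacterised or non-coding loci, those whose log2(RPKM + 1) followed each member most closely over the 8 libraries were found by Pearson correlation, given without a test. For Ptgs2 they were B4galt5 (r = 0.991), Stat3 (0.981) and Asah2 (0.976), of which B4galt5 went from 18.1 RPKM in Cre D0 to 57.6 in Cre 4h. For Ptgs1 they were Itgav (0.995), Rab39b (0.995) and Magi2 (0.992), and for Ptgis Praf2 (0.991), Rhoc (0.991) and Cttnbp2nl (0.990). Ptges2 was followed by Uqcr11 (0.995), Uqcc1 (0.992) and Zfp768 (0.990), and Ptges by Usp19 (0.991), Nmnat1 (0.978) and Marchf2 (0.978). Among the receptors, Tbxa2r was followed by Dusp8 (0.991), Syde1 (0.990) and Borcs7 (0.989), Ptger4 by Zfp90 (0.990), Slc4a11 (0.989) and Tmco3 (0.987), and Ptgfr by Fzd3 (0.982), Dpy19l1 (0.981) and Pde7a (0.978). These 8 libraries share their times and lines, and r is a description of them.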

How the data were processed

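RNA sequencing tables of 8 libraries were used. Per the file headers, each table the authors deposited gives RefSeq transcript accessions with their read count and RPKM value. The submitters' processing notes name CASAVA 1.8.2, SICER and mm9, and no label or header names the aligner, the counter or how strand and reads with several matches were treated. The quotient of deposited count and RPKM returned 1 total per library (7.7 to 28.9 M reads, taken as depth) and whole transcript lengths to within 0.02 nucleotides. Of 29082 accessions, 28436 (97.8%) matched a symbol of the RefSeq table of GRCm38.p6, used for names and neighbouring genes. The 22 ChIP samples were not analysed here.

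Read counts of the 12581 genes that reached 1 RPKM in 2 or more libraries were fitted with edgeR 4.0.16 in R 4.3.3 (glmQLFit and glmQLFTest, TMM scaling, additive model of time and genotype, Benjamini-Hochberg adjustment over all genes tested, threshold 0.05). The model had 3 residual degrees of freedom, a median of 2.88 prior degrees of freedom and a common biological coefficient of variation of 0.176, and the SE is the log2 change over the root of F. Cre against Vec at a time used no test: a gene counted as 2-fold different when its log2(RPKM + 1) values lay 1 or more apart, counted over genes that reached 1 RPKM in either library. Ratios carry 95% Clopper-Pearson intervals on the reads, which cover counting error only, as do the Poisson intervals and the floor of 3 reads. The fits were tested on simulated data. Alternatives were limma 3.58.1 on log2(RPKM + 1) and log2(RPKM + 5), DESeq2 1.42.0, RLE scaling, other filters, summed accessions and leaving out each library.

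The 10 genes, the 48 other pathway genes, the cell type markers and the rules were chosen with earlier results of these data known. All 10 genes are reported, and other pathway genes are named where they passed the threshold in a time comparison or differed 2-fold between genotypes. Ptgds, Hpgds, Tbxas1 and the marker genes were named outside that rule, after their values were seen. Promoters came from RefSeq GRCm38.p6, and Ptgis had no entry. By the RefSeq table no member overlaps a protein-coding gene, while Ptges and Ptgis overlap non-coding loci whose reads cannot be told apart without strand. One overlap of another pathway gene is not reported here.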

Additional observations from a re-analysis of the deposited data

How the results depend on the processing

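No paired analysis was possible because each genotype and time holds 1 library and the RNA labels carry no replicate numbers to pair, beyond the additive model itself, which sets the Vec and Cre libraries of a time side by side. In edgeR the number of members past the threshold was 2 at 4h against D0, 7 at D2 against D0, 1 at D7 against D0, 6 at D2 against 4h and 5 at D7 against D2. Of all 12581 genes, 3188, 4867, 1018, 4202 and 3058 passed. With limma on log2(RPKM + 5) the members numbered 1 at 4h against D0, 2 at D7 against D0 and 3 at D7 against D2, where 3108, 1141 and 2992 genes passed. With limma on log2(RPKM + 1) they numbered 2 at D7 against D0 and 3 at D7 against D2, where 1248 and 3149 genes passed. At D7 against D0 they also numbered 4 with DESeq2, 2 with RLE scaling and 3 with no filter on RPKM. There 2103 and 1043 of 12581 genes and 1429 of 19301 genes passed. Leaving out 1 library at a time, with the library left alone at its time assumed to vary like the others, gave 0 to 2 members at 4h against D0, 3 to 7 at D2 against D0, 0 to 4 at D7 against D0, 3 to 6 at D2 against 4h and 0 to 4 at D7 against D2, and the calls lost stand beside each of the 10 genes and the other pathway genes named with a change. The number of all genes past the threshold then ranged from 0 (without Vec D0) to 3117 at 4h against D0, from 1018 to 4914 at D2, from 0 to 1396 at D7, from 1232 to 4285 at D2 against 4h and from 519 to 2736 at D7 against D2. DESeq2 called 2103 genes at D7 against D0, where edgeR called 1018, and 19 for Cre against Vec. That comparison had 0 members in every alternative. At D7 the number of members 2-fold different between genotypes was 0, where 562 of 12480 genes were. On log2(RPKM + 0.5) it was 2, Ptgs1 and Ptges2, where 737 of 12480 genes were. With TMM or RLE scaling it was 1, where 586 of 12535 and 581 of 12522 genes were. The cause of these differences was not tested, other than that leaving out a library leaves fewer residual degrees of freedom.

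Counts over all genes also moved with the filter and the pseudocount. Against D0, 547 genes passed at D7 with an RPKM of at least 5 in 2 libraries. On log2(RPKM + 5) the genes 2-fold different between genotypes numbered 4 (D0), 195 (4h), 164 (D2) and 209 (D7), where the counts on log2(RPKM + 1) were 52, 504, 487 and 562, and 11 before induction with an RPKM of at least 5 in either library.

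The changes that turned sign passed no threshold. Ptges at 4h against D0 (0.06) was −0.026 and −0.011 in the limma fits on log2(RPKM + 1) and log2(RPKM + 5). Ptges at D7 against D2 (0.02) was −0.11 and −0.076 in these fits, −0.037 with no filter and −0.0084 with summed accessions. With 1 library left out, log2 changes ran from −0.19 to 0.29 for Ptges and from −0.49 to 0.13 for Ptgis at 4h against D0, from −0.68 to 0.0068 for Ptger4 and from −0.19 to 0.71 for Tbxa2r at D7 against D0, from −0.21 to 0.24 for Ptgfr at D2 against 4h, from −0.34 to 0.34 for Ptges and from −0.69 to 0.12 for Ptges2 at D7 against D2, and from −0.038 to 0.24 for Ptges between genotypes.

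Depth limits what can be said of Tbxa2r at 4h, Ptger2 and Hpgd, which rest on few reads.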
